A study of Homo sapiens with 12 samples.

Results

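The enzymes and the adaptor protein that write, maintain and remove DNA methylation were described in cerebral organoids (COs) with and without editing of *c-JUN*. They were taken by gene symbol, with no use of their values: the DNA methyltransferases *DNMT1*, *DNMT3A* and *DNMT3B*, the adaptor *UHRF1*, and the dioxygenases *TET1*, *TET2* and *TET3*. All 7 were present among the 10976 genes measured. The COs were grown without patterning factors. WT COs came from the human embryonic stem cell line H1, and KO COs from KO#2 and KO#10, 2 single clones of H1 in which *c-JUN* had been targeted with CRISPR-Cas9. RNA was sequenced on day 12 and day 24, with 2 libraries for each line and day, which gave 2 WT and 4 KO libraries per day and 12 in all. Each library held RNA of several pooled COs, and nothing in the labels says that the 2 libraries of a line came from separate inductions, so that the *p*-values measure the spread between these libraries, which may be partly technical. The 4 KO libraries of a day came from only 2 clones.

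In mammalian DNA, methylation is found mainly on cytosines that are followed by guanine (CG sites). *DNMT3A* and *DNMT3B* encode the de novo methyltransferases, which place the mark on unmethylated DNA, and *DNMT3B* is the form known for its high level in pluripotent cells and the early embryo. At replication the protein of *UHRF1* binds the half-methylated site and brings in that of *DNMT1*, which copies the mark to the new strand. The TET dioxygenases oxidize 5-methylcytosine and thereby start its removal, and they need 2-oxoglutarate and iron. *TET1* is known from pluripotent cells, and *TET2* and *TET3* from many differentiated tissues, the developing brain among them. DNA methylation itself was not measured here. All values are RNA levels.

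The values were whole-number scores on a scale that the authors had normalized. The median was 17 and the highest value 5585 in every library, the totals lay between 473637 and 483149, and the depth of the libraries is unknown. *JUN*, the edited gene, scored 4 to 8 in WT libraries and 13 to 19 in KO libraries on day 12. On day 24 the scores were 13 to 15 and 29 to 39, so that its level goes against the label KO. A score per gene cannot tell edited from unedited transcripts. WT and KO are therefore the names on the labels, and a direction of KO against WT holds as far as these do. *PAX6*, a gene of neural progenitors, was present in every library, from 34 to 112, as was *SOX2*, which pluripotent cells also express, from 34 to 146. Both WT libraries of day 24 also held many transcripts of other cell types, with *AFP*, a gene of liver and yolk sac, at 5585. Replicate 1 of KO#10 on day 24 stood apart from the other KO libraries (*AFP* 902, against 0 to 42), and the day 24 comparison of KO with WT was also made without it. In bulk RNA, fewer cells of a type and less RNA per cell cannot be told apart.

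In the coordinates of the files, which are compatible with GRCh38, *DNMT1* (ENSG00000130816) spans chr19:10133342-10231286, *UHRF1* (ENSG00000276043) chr19:4903080-4962154, *DNMT3A* (ENSG00000119772) chr2:25227855-25342590 and *DNMT3B* (ENSG00000088305) chr20:32762385-32809356. *TET1* (ENSG00000138336) spans chr10:68560337-68694487, *TET2* (ENSG00000168769) chr4:105145875-105279816 and *TET3* (ENSG00000187605) chr2:73984910-74108176. *DNMT1* overlaps *S1PR2* on the same strand, and *TET2* and *TET3* overlap annotated antisense transcripts, so that reads in the overlaps may have been assigned to either.

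Windows of 250 bases upstream of a transcript start are shown for *DNMT3B*, *TET2* and *TET3*, because *DNMT3B* and *TET2* gave the differences between KO and WT and *TET3* was the member with the level most like that of *TET2* over the 12 libraries. They are RefSeq sequences of GRCh38.p14 on the plus strand, 5′ to 3′, and CG sites, the substrate of the enzymes, are in capitals. The *DNMT3B* window chr20:32779602-32779851 lies upstream of a start inside the interval of the gene, the *TET2* window is chr4:105145625-105145874 and the *TET3* window is chr2:73984660-73984909.
DNMT3B: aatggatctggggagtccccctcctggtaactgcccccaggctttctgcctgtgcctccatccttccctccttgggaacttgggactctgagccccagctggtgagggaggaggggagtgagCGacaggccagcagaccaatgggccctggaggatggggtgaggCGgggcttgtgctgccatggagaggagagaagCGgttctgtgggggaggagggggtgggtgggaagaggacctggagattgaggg
TET2: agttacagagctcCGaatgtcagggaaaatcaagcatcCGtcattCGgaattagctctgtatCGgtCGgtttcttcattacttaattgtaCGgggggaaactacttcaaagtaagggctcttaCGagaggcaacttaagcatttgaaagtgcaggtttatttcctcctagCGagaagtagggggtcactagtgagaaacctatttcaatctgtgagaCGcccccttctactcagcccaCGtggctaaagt
TET3: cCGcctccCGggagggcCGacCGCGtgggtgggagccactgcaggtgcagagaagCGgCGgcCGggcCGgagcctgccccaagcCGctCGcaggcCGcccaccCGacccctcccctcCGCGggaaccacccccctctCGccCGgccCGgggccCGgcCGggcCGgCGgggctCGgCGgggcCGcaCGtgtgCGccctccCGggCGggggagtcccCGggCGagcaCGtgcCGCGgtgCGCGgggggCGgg
They held 3, 10 and 37 CG sites, and 11 was the median over the 35116 RefSeq windows of this kind. The count depends on the start, since the other *TET2* window (chr4:105146626-105146875) held 34 and the other *TET3* window 27. For *DNMT3B* and *DNMT1* the only window lay inside the interval of the gene, so that bases upstream of it were not searched. Among the 18 windows of the 7 genes, none held the AP-1 motif TGANTCA, the motif of c-JUN dimers with FOS proteins, which 6.57% of all windows held. None held the CRE motif TGACGTCA (1.65% of all windows) or the octamer ATGCAAAT (1.63%), the motif of *POU5F1* and its relatives. The E2F motif TTTCCCGC was in 1 window, of *UHRF1*, and in 1.39% of all windows. Both strands were searched, and no motif contains another. A match or its absence in these letters says nothing of binding.

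Of the maintenance pair, *DNMT1* fell over time in WT, while *UHRF1* passed no test. *DNMT1* had 79 and 70 in WT on day 12, 58 and 60 in KO#2, and 65 and 58 in KO#10. The day 24 values were 33 and 35 in WT, 41 and 43 in clone KO#2 and 42 and 46 in clone KO#10. Every day 24 library was below every day 12 library, and KO was below WT on day 12 and above it on day 24, with no overlap on either day. Of all genes tested, 8.34% lay below WT in this way on day 12 and 22.2% above it on day 24.

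From day 12 to day 24, *DNMT1* fell by 1.11 on the log2 scale in WT (standard error 0.14, limma adjusted *p* = 4.05e-04, *n* = 2 and 2), which is 2.15-fold lower. It was the only one of the 7 called, that is, with an adjusted *p* under 0.05 and a change of at least 2-fold, where 7.86% of the 9952 genes tested were called lower and 15.1% in either direction. No overlap in this direction was seen for 31.6% of genes. Leaving the size of the change aside, 2 of the 7 had an adjusted *p* under 0.05 in WT (*DNMT1* and *DNMT3A*, against 29.5% of all genes) and 4 in KO (*DNMT1*, *DNMT3B*, *TET2* and *TET3*, against 37.9%). In KO the change of *DNMT1* was −0.48 with a standard error of 0.10, which was under 2-fold although the adjusted *p* was 0.00254 (*n* = 4 and 4). The interaction of genotype and day, which tests whether the day change differed between KO and WT, was 0.63 for *DNMT1* (standard error 0.17, adjusted *p* = 0.0697), so that a difference was not established. Without the replicate block none of the 7 was called by limma in the interaction (1.31% of all genes were), and 4 had an unadjusted *p* under 0.05, as did 21.5% of all genes. With the replicate number as a block, *DNMT1* had an adjusted *p* of 0.0405 at a change under 2-fold, and *TET3* was called. KO against WT gave −0.30 on day 12 (adjusted *p* = 0.461) and 0.33 on day 24 (adjusted *p* = 0.0937, and 0.0745 without replicate 1 of KO#10).

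*UHRF1* had 29 and 42 in WT, 36 and 51 in clone KO#2 and 32 and 49 in clone KO#10 on day 12, and 31 and 23, 36 and 58, and 41 and 55 on day 24. On day 12 replicate 2 was the higher library in all 3 lines and the groups overlapped. On day 24 all 4 KO libraries were above both WT libraries, as were those of 22.2% of the 9289 genes tested. KO minus WT was 0.23 on day 12 (adjusted *p* = 0.793) and 0.78 on day 24 (standard error 0.23, adjusted *p* = 0.0621), and neither passed the test (0.84 on day 24 without replicate 1 of KO#10, adjusted *p* = 0.0514). Within each replicate number of day 12, both KO libraries were above the WT library, and with the number as a block the adjusted *p* was 0.268.

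**Figure D1:**
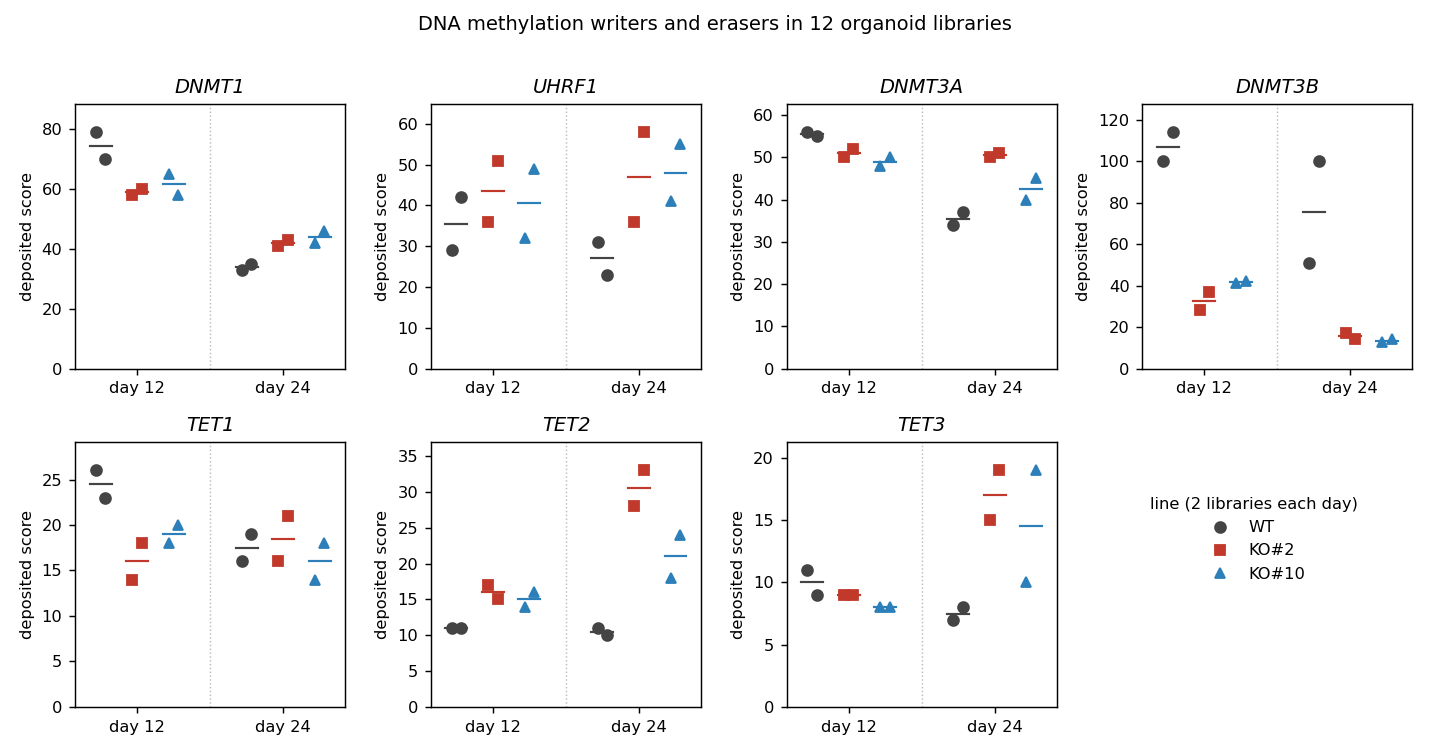
Deposited scores of the 7 genes (vertical axes, each from 0) in the 12 libraries, by day and line. Points are single libraries (2 per line and day) and bars are their means; *DNMT3B* lies below WT in all KO libraries of both days, and *TET2* and *TET3* reach 18 to 33 and 10 to 19 in KO on day 24 against 10 to 11 and 7 to 8 in WT.

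The 8 partners of maintenance methylation that were looked at are *HELLS*, *CDCA7*, *CDCA7L*, *USP7*, *UHRF2*, *PCNA*, *LIG1* and *PCLAF*. On day 12 none was called in KO against WT, all 8 fold changes were negative, from −0.78 to −0.03, and their median was −0.41 beside 0.00 over all genes tested. Their summed score was 605 to 648 in WT and 444 to 483 in KO. By limma 4 of the 8 had an unadjusted *p* under 0.05, as did 11% of all genes on day 12. On day 24 none was called and 2 had an unadjusted *p* under 0.05, where 37.8% of all genes did. On that day 5 fold changes were positive, the median was 0.07 beside 0.01, and the sums were 397 to 420 in WT and 462 to 473 in KO. In each case the sums of the groups did not overlap. On day 24 this rested on *PCNA*, with 162 and 146 in WT and 206 to 220 in KO, and without *PCNA* the sums of that day overlapped.

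Over time, 2 of the 8 partners fell in WT. *HELLS*, a chromatin remodeler needed for normal DNA methylation, had 184 and 148 in WT on day 12 and 36 and 52 on day 24 (log2 fold change −1.91, adjusted *p* = 0.00108). *UHRF2*, a paralog of *UHRF1*, had 53 and 41 and then 24 and 19 (−1.09, adjusted *p* = 0.00198). In KO, *HELLS* alone was called, with 84 to 112 on day 12 and 24 to 49 on day 24 (−1.37, adjusted *p* = 4.59e-04). Genes of S phase, in which maintenance takes place, had a summed score of 1554 to 1575 in WT and 1375 to 1446 in KO on day 12, and of 1176 to 1256 and 1120 to 1283 on day 24. On day 24 the sums of KO and WT overlapped, 1 of these 20 genes was called lower in KO (*CCNE1*, a cyclin of the entry into S phase, −1.17, adjusted *p* = 0.0235) and the median of the list was 0.03. *CCNE1* reached 10 in KO in replicate 1 of KO#10 alone and passed the filter through WT. Without replicate 1 of KO#10, *CCNE1* (−1.27, adjusted *p* = 0.00772) and *CDK1*, a mitotic kinase (−1.04, 0.00623), were called lower. Under 2-fold but with a limma adjusted *p* under 0.05, *MKI67*, *MCM2*, *MCM7* and *E2F1* were higher in that fit (0.65 to 0.80). *TK1* and *CDC6* were lower in the same way (−0.65 and −0.86). In WT, *MKI67* and *TOP2A*, which mark dividing cells, fell over time by 1.09 and 1.16 on the log2 scale (adjusted *p* = 6.52e-04 and 0.00986). Other genes of this list stood higher on day 24 in WT, such as *CCNA2* (38 and 43, then 47 and 53) and *CCNE1* (13 and 16, then 18 and 20). What part cell division had in the lower *DNMT1* level of day 24 was not tested.

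Among the 7 genes, *DNMT3B* showed the largest difference between KO and WT on either day. On day 12 it had 100 and 114 in WT, 28 and 37 in clone KO#2 and 41 and 42 in clone KO#10. All 4 KO libraries were far below both WT libraries, and 8.34% of genes had no overlap in this direction. KO was 2.87-fold lower, or −1.52 on the log2 scale (standard error 0.19, adjusted *p* = 0.0389, *n* = 4 and 2). This was 1 of only 6 genes called lower of 8885 tested (0.0675%), and 1 of 8 called in either direction (0.09%). *DNMT3B* was the eighth of all genes in order of *p*, and the other members were not called.

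The day 12 call was close to the threshold. It was lost when any 1 of the 6 libraries was left out, with a fold change between −1.61 and −1.40 and an adjusted *p* between 0.0601 and 0.557. It was kept with the replicate number as a block (adjusted *p* = 0.0167), where 71 genes were called in all. It was lost without the filter on low values (adjusted *p* = 0.0796) and with the clones as separate groups (0.0706).

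On day 24 *DNMT3B* had 51 and 100 in WT, 17 and 14 in clone KO#2 and 13 and 14 in clone KO#10. The groups did not overlap, as for 21.8% of genes in this direction, and the 2 WT libraries differed by more than the 4 KO libraries did. KO was 4.70-fold lower, or −2.23 on the log2 scale (standard error 0.26, adjusted *p* = 0.0172), where 3.79% of 9289 genes were called lower. With *TET2*, 2 of the 7 were called on day 24, where 8.01% of all genes were called in either direction. Without replicate 1 of KO#10 *DNMT3B* was at −2.18 (adjusted *p* = 0.00692). The call was lost without replicate 2 of WT (−1.75, adjusted *p* = 0.111), of KO#2 (−2.22, 0.0665) or of KO#10 (−2.22, 0.0668).

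Each clone was also set against WT, in fits that share the 2 WT libraries of a day. On day 12 the fold change of *DNMT3B* was −1.70 in KO#2 (adjusted *p* = 0.111, and 0.0264 with the replicate block) and −1.34 in KO#10 (0.306), where 0.0113% of genes were called in each clone. On day 24 it was −2.14 in KO#2 (adjusted *p* = 0.0320, called, where 4.25% of genes were called lower) and −2.32 in KO#10 (0.0736, not called, where 0.14% were). KO#10 minus KO#2 was 0.36 on day 12 (95% interval −0.11 to 0.82) and −0.18 on day 24 (−0.98 to 0.61). No gene was called between the clones by limma on either day, and 1.29% and 5.16% of genes had an unadjusted *p* under 0.05.

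Over time *DNMT3B* fell in KO by 1.28 on the log2 scale (standard error 0.19, adjusted *p* = 5.00e-04), 2.43-fold lower, with 28 to 42 on day 12 and 13 to 17 on day 24 and no overlap. In KO 5.59% of genes were called lower over time and 11.5% in either direction, and the days did not overlap in this direction for 15.6%. In WT the change was −0.57 (standard error 0.27, adjusted *p* = 0.132) and the days overlapped, since replicate 2 of day 24 was at 100. Without that library the change in WT was −1.05 (adjusted *p* = 0.0243, called). The interaction was −0.71 (95% interval −1.44 to 0.02, adjusted *p* = 0.245), so that a faster decline in KO was not established.

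The summed level of markers of pluripotent cells moved with *DNMT3B*. The 11 of 14 listed markers in the files summed to 1004 and 1241 in WT on day 12 and 662 to 702 in KO, and on day 24 to 588 and 1219 in WT and 86 to 135 in KO. The WT library of day 24 with the lower sum was also the one with the lower *DNMT3B*. On day 12, 2 of the 10 markers tested were called lower in KO, and on day 24 all 10 fold changes were negative and 8 were called lower, with a median of −3.09 beside 0.01 over all genes (9 of 10 called without replicate 1 of KO#10). Not every marker differed on day 12, when KO and WT overlapped for *SALL4* (log2 fold change −0.10) and *LIN28B* (−0.01). *POU5F1*, which defines pluripotent cells, had 107 and 136 in WT and 16 to 19 in KO on day 12, and 75 and 236 in WT and 3 to 6 in KO on day 24. The log2 fold changes were −2.76 on day 12 and −4.64 on day 24 (adjusted *p* = 6.02e-04 and 0.00898). *TDGF1*, a co-receptor of Nodal and the other marker called on day 12 (−4.01, adjusted *p* = 0.00641), was at 0 in 3 of the 4 KO libraries of day 24, and *ZFP42*, a pluripotency-associated zinc finger gene, was at 1 in all 4. *LIN28A*, which blocks the maturation of let-7 microRNAs, had 212 and 228 in WT and 8 to 26 in KO on day 24 (−3.73, adjusted *p* = 0.0181). On day 24 *POU5F1*, *TDGF1*, *ZFP42* and *L1TD1* were under 10 in every KO library and were tested through WT. What part pluripotent cells had in the *DNMT3B* difference was not tested.

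*DNMT3A*, the other de novo enzyme, had 56 and 55 in WT, 50 and 52 in clone KO#2 and 48 and 50 in clone KO#10 on day 12. The day 24 values were 34 and 37, 50 and 51, and 40 and 45. KO was below WT on day 12 and above it on day 24, in each case without overlap but by little, as were 8.34% and 22.2% of genes at any distance. The fold changes were −0.15 (adjusted *p* = 0.721) and 0.37 (standard error 0.14, adjusted *p* = 0.108, and 0.0413 at a change under 2-fold without replicate 1 of KO#10). From day 12 to day 24 it was lower in WT by a log2 fold change of −0.63 (adjusted *p* = 0.00855, under 2-fold). In KO the day change was −0.11 (adjusted *p* = 0.428) and the days overlapped. The interaction was 0.52 (adjusted *p* = 0.128, and 0.0361 without replicate 1 of KO#10 on day 24).

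Within a library, the difference *DNMT3B* minus *DNMT3A* on the log2 scale shows how the 2 de novo enzymes stood to each other. Its changes can be compared between libraries, but its sign cannot be read as which gene had more RNA, since the score is not known to be per length. It was 0.83 and 1.04 in WT on day 12 and between −0.81 and −0.22 in KO, and on day 24 0.57 and 1.41 in WT and between −1.79 and −1.50 in KO. KO lay below WT on both days, by 1.37 and 2.61 (exact two-sided permutation *p* = 0.0667 on each, the smallest that 2 against 4 libraries allow). From day 12 to day 24 its change in KO was −1.18 (exact two-sided permutation *p* = 0.0286, the smallest for 4 against 4, and 0.0889 after adjustment over 8 such tests).

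**Figure D2:**
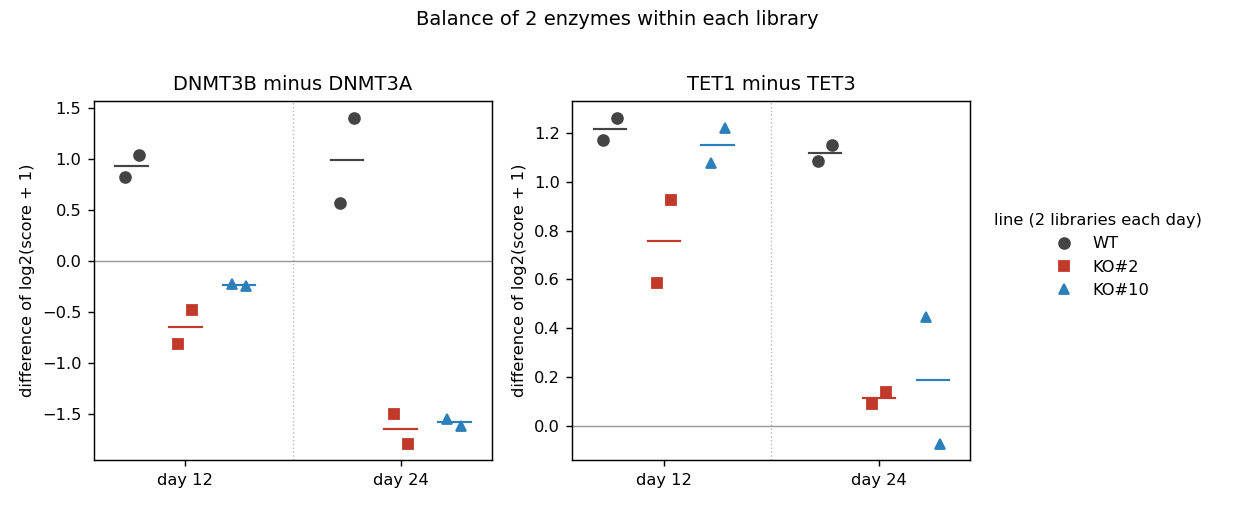
Difference of log2(score + 1) between 2 genes within each library (vertical axes), by day and line, with points for libraries and bars for the means of 2. For *DNMT3B* minus *DNMT3A* the KO libraries lie below both WT libraries on each day and lowest on day 24, and for *TET1* minus *TET3* they separate from WT on day 24 only.

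Of the 8 listed regulators of de novo methylation, 5 were in the files (*TRIM28*, *NSD1*, *NSD2*, *SETD2* and *QSER1*). None was called by limma in KO against WT on either day, where 1 and 2 of them had an unadjusted *p* under 0.05. *NSD2*, which methylates histone H3 at the residue that *DNMT3A* recognizes, had a log2 fold change of 0.85 on day 24 (adjusted *p* = 0.0318, under 2-fold, as it was without replicate 1 of KO#10 at 0.96). All 5 were lower on day 24 in WT, with a median of −0.86 beside 0.02 over all genes, and *NSD1*, a related histone methyltransferase, was called (82 and 52 on day 12, 27 and 28 on day 24, −1.22, adjusted *p* = 0.00257).

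Among the erasers, *TET2* was the one called in KO against WT, on day 24. *TET2* had 11 and 11 in WT, 17 and 15 in clone KO#2 and 14 and 16 in clone KO#10 on day 12, and 11 and 10, 28 and 33, and 18 and 24 on day 24. KO was above WT on both days with no overlap, which held for 8.23% of genes on day 12 and 22.2% on day 24, and KO#2 was above KO#10 on day 24. The day 12 difference was 0.46 on the log2 scale (adjusted *p* = 0.295). The day 24 difference was 1.19, or 2.28-fold higher (standard error 0.23, adjusted *p* = 0.0270), where 4.22% of genes were called higher.

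The *TET2* call was kept without replicate 1 of KO#10 (1.34, adjusted *p* = 0.00621) and lost when any other library of day 24 was left out, with a fold change between 1.06 and 1.25 and an adjusted *p* between 0.0631 and 0.253. KO#2 against WT gave 1.45 (adjusted *p* = 0.0301, called, where 4.75% of genes were called higher), and KO#10 against WT gave 0.92 (0.0965, where 0.14% were). KO#10 minus KO#2 was −0.53 (95% interval −1.004 to −0.05, adjusted *p* = 0.825).

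Over time *TET2* was higher in KO by 0.67 on the log2 scale, which was under 2-fold (standard error 0.16, adjusted *p* = 0.00691), with every day 24 library above every day 12 library, as for 16% of genes. In WT the change was −0.06 (adjusted *p* = 0.857). The interaction was 0.73 (adjusted *p* = 0.161, and 0.0237 without replicate 1 of KO#10 on day 24, at a fold change under 2-fold).

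*TET3* had 11 and 9 in WT, 9 and 9 in clone KO#2 and 8 and 8 in clone KO#10 on day 12, which was too low to be tested there. On day 24 it had 7 and 8 in WT, 15 and 19 in clone KO#2 and 10 and 19 in clone KO#10, again with no overlap, as for 22.2% of genes in this direction. Both WT libraries were under the score of 10 of the filter, so that *TET3* was tested on day 24 only through its KO libraries. On day 24 KO minus WT was 0.94 (standard error 0.27, adjusted *p* = 0.0565), and without replicate 1 of KO#10, the lowest KO library, it was 1.13 (adjusted *p* = 0.00848, called). Over time *TET3* was higher in KO by 0.78 (adjusted *p* = 0.00668, under 2-fold) and changed by −0.37 in WT (adjusted *p* = 0.307). The interaction was 1.15 (standard error 0.32, adjusted *p* = 0.0807). It was called with the replicate block (adjusted *p* = 0.0430, 368 genes called) and without replicate 1 of KO#10 on day 24 (1.34, adjusted *p* = 0.00617), in a fit that called 916 genes in place of 130 (1.31% of 9952).

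*TET1* had 26 and 23 in WT, 14 and 18 in clone KO#2 and 18 and 20 in clone KO#10 on day 12. The day 24 values were 16 and 19, 16 and 21, and 14 and 18. KO was below WT on day 12, as were 8.34% of genes, and the groups overlapped on day 24. The log2 fold changes of KO against WT were −0.47 (adjusted *p* = 0.343) and −0.03 (95% interval −0.47 to 0.41, adjusted *p* = 0.916), and the latter was 0.060 without replicate 1 of KO#10. Over time they were −0.47 in WT (adjusted *p* = 0.110) and −0.02 in KO (adjusted *p* = 0.913).

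The difference *TET1* minus *TET3* was 1.17 and 1.26 in WT and 0.58 to 1.22 in KO on day 12, which overlapped. On day 24 it was 1.09 and 1.15 in WT and −0.07 to 0.45 in KO, lower by 0.97 (exact two-sided permutation *p* = 0.0667, the smallest possible). In KO its change over time was −0.80 (exact two-sided permutation *p* = 0.0286, and 0.0889 after adjustment over the 8 tests).

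**Figure D3:**
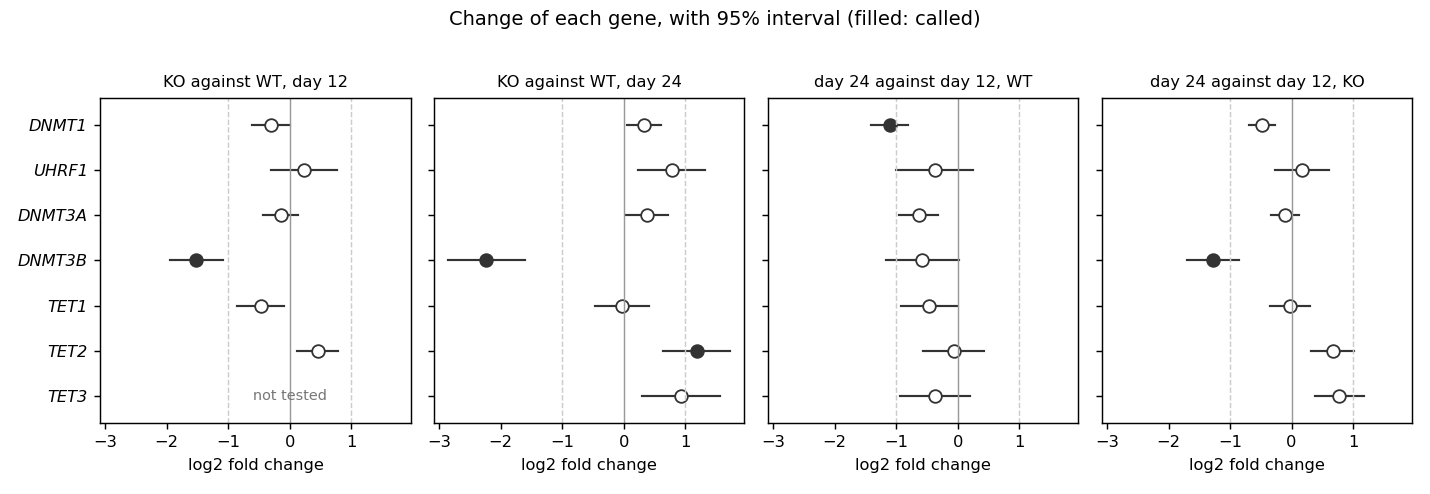
Log2 fold changes of the 7 genes (points) with 95% intervals from limma (lines) in 4 comparisons; filled points were called and dashed lines mark a 2-fold change. The filled points are *DNMT3B* in both comparisons of KO with WT and over time in KO, *TET2* in KO against WT on day 24, and *DNMT1* over time in WT.

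Neuron markers were higher in KO on day 24 beside *TET2* and *TET3*. The 12 listed markers, all in the files, summed to 326 and 176 in WT, 1611 and 2028 in clone KO#2 and 408 and 1394 in clone KO#10, where 408 belongs to replicate 1, which also had the lowest *TET2* and *TET3* of the KO libraries. On day 12 the sums were 181 and 266 in WT and 268 to 353 in KO. Of the 9 tested on day 24, 3 were called higher and the median was 1.91, and without replicate 1 of KO#10 all 9 were called higher, with a median of 2.35. With all libraries 4.22% of all genes were called higher. In either direction 744 genes were called, and up to 1346 when 1 library was left out. *ELAVL3*, *ELAVL4* and *MAPT* were under 10 in both WT libraries and were tested through KO. Those called with all libraries were *GAP43*, a growth cone protein (1.95, adjusted *p* = 0.0181), *ELAVL4*, a neuronal RNA-binding protein (1.98, 0.0432), and *MAP2*, a protein of dendrites (3.60, 0.0471). *NEUROD6*, a marker of cortical projection neurons, was at 0 in both WT libraries and in 2 of the 4 KO libraries. Of the 12 neural progenitor markers, 3 were called higher, the transcription factor genes *PAX6*, *SOX1* and *EMX2* (median 1.06, and 7 called without replicate 1 of KO#10), with summed scores of 820 and 586 in WT and 1068 to 1304 in KO. Much of these sums was *VIM*, with 316 and 354 in WT and 550 to 748 in KO, and without *VIM* the sums overlapped. On day 24 *SOX1* and *EMX2* were under 10 in both WT libraries and were tested through KO.

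Markers of endoderm and liver stood at 7327 and 7151 in WT on day 24, against 33, 40 and 106 in 3 KO libraries and 1299 in replicate 1 of KO#10. With all libraries 3 of the 7 tested were called lower (*TTR*, *SERPINA1* and *RBP4*), and without that one all 7 were. Those of mesenchyme and neural crest stood at 2151 and 1897, against 138 to 155 and 2331, and 0 of 7 tested were called by limma with all libraries (2 had an unadjusted *p* under 0.05) and 5 of 5 without that one. *SOX10* and *PRRX1* no longer passed the filter then. Without that library *SERPINA1*, *RBP4*, *APOA1* and *PDGFRA* were under 10 in every KO library of day 24 and were tested through WT. There *AFP*, *APOA2* and *FGB* reached 10 in KO in replicate 1 of KO#2 alone (42, 15 and 10), and passed the filter through WT too. With all libraries *SERPINA1* and *RBP4* reached 10 in KO in replicate 1 of KO#10 alone (17 and 23), and also passed through WT. *DNMT3B* in replicate 1 of KO#10 was 13, against 14 to 17 in the other KO libraries. What part the cell makeup had in the differences of *TET2*, *TET3* and *UHRF1* was not tested.

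**Figure D4:**
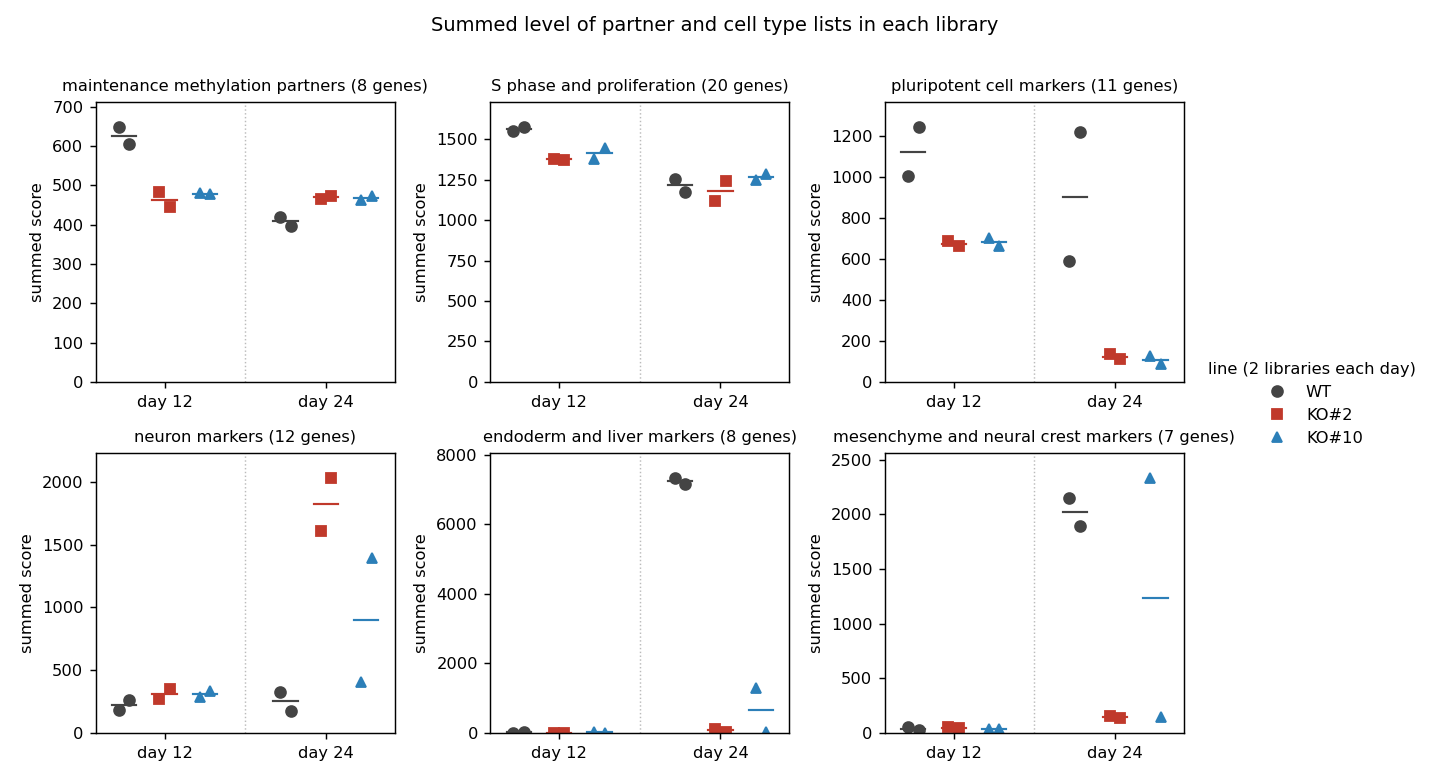
Summed score of the genes of 6 lists (vertical axes, each from 0) in each library, by day and line, with points for libraries and bars for the means of 2. Partners of maintenance methylation lie between 397 and 648 in all libraries, while pluripotent cell markers fall to 86 to 135 in KO on day 24 and 1 KO#10 library of that day has a mesenchyme sum of 2331, above both WT libraries.

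The proteins that act with the TET enzymes or finish demethylation by base excision repair gave 17 of 18 listed genes. On day 12 none of the 15 tested was called by limma in KO against WT, and 2 had an unadjusted *p* under 0.05. On day 24 *GADD45A*, a stress-induced gene that has been tied to active demethylation, was called (14 and 24 in WT, 5 and 3 in clone KO#2, 9 and 6 in clone KO#10, −1.60, adjusted *p* = 0.0417, and −1.81, 0.0144 without replicate 1 of KO#10). Every KO library of day 24 was under 10, so that *GADD45A* was tested there through WT. On day 12 it stood the other way, with 8 and 8 in WT and 12 to 17 in KO. It rose over time in WT (1.11, adjusted *p* = 0.0380) and fell in KO (−1.26, adjusted *p* = 0.00273), and its interaction was called (−2.37, adjusted *p* = 0.0328). *OGT*, an O-GlcNAc transferase that binds TET proteins, fell over time in both, from 102 to 130 down to 30 to 37 in WT (−1.76, adjusted *p* = 7.90e-04) and from 93 to 144 down to 46 to 70 in KO (−1.14, adjusted *p* = 5.62e-04). *GADD45G*, a relative of *GADD45A*, rose over time in both, from 0 to 4 up to 4 to 13 (2.56 in WT and 1.89 in KO, adjusted *p* = 0.0225 and 0.0137). It passed the filter through KO libraries of day 24 alone (13 and 11), and was under 10 in every WT library.

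All 8 listed readers of methylated CG sites were in the files and none was called by limma in KO against WT or over time. In KO against WT the readers with an unadjusted *p* under 0.05 were 0 on day 12 and 2 on day 24. Of the 12 genes of the cycle of S-adenosylmethionine, the methyl donor, 10 were in the files. *MTHFD2*, a mitochondrial folate enzyme, was called lower in KO on day 24 (53 and 71 in WT, 20 to 30 in KO, −1.30, adjusted *p* = 0.0196, and −1.40, 0.00627 without replicate 1 of KO#10). *MAT2A*, which makes S-adenosylmethionine, fell over time in WT (212 and 229 on day 12, 92 and 68 on day 24, −1.47, adjusted *p* = 0.00124). Its KO values on day 24 were 116 to 193, above both WT libraries (0.82, adjusted *p* = 0.0551, and 0.91, 0.0338 without replicate 1 of KO#10).

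Of the 9 genes that make or consume 2-oxoglutarate or its competitors, 8 were in the files and none was called by limma in KO against WT (0 on day 12 and 2 on day 24 with an unadjusted *p* under 0.05). Over time *IDH1*, which makes 2-oxoglutarate, rose by 1.01 in WT (adjusted *p* = 0.00187) and by 1.02 in KO (1.08e-04). In WT *FH*, which consumes fumarate, rose (1.19, adjusted *p* = 0.00858). None of 15 listed germline genes that promoter methylation is known to silence was among the genes measured, so that they gave no view of methylation at their promoters.

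The genes whose level over the 12 libraries was most like that of each member were ranked by Pearson's r on the log2 scale, among 9948 others. The 12 points share lines, days and the authors' normalization, and r is given as a description. For *DNMT3B* they were *ZSCAN10* (0.980), *VRTN* (0.976) and *ZFP42* (0.972). *ZSCAN10* had 7 to 30 in WT, 1 to 4 in KO on day 12 and 0 in all KO libraries of day 24, and *VRTN* had 9 to 20, 4 to 5 and 0. For *TET2* they were *GPC2* (0.962), *MIR9-3HG* (0.953) and *KALRN* (0.951), and for *TET3* *CAB39* (0.957), *IGFBPL1* (0.954) and *TMSB4X* (0.952). For *DNMT1* they were *LINC01409* (0.968), *KIAA0319L* (0.963) and *ZBTB37* (0.961), for *DNMT3A* *RALGAPA2* (0.971), *LINC00504* (0.968) and *REV3L* (0.947), for *UHRF1* *ATRN* (0.961), *MCM2* (0.946) and *NSMF* (0.945), and for *TET1* *LRRC8A* (0.918), *AP3D1* (0.907) and *ANKRD50* (0.904).

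Among the members themselves, r over the 12 libraries was highest between *TET2* and *TET3* (0.832) and between *DNMT1* and *DNMT3A* (0.827). It was lowest between *DNMT3B* and *TET2* (−0.888). *DNMT3A* and *DNMT3B*, the de novo enzymes, had an r of 0.06, and *DNMT1* and *UHRF1*, the maintenance pair, one of 0.12.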

How the data were processed

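Total RNA of COs was sequenced after depletion of ribosomal RNA with a strand-marking library protocol. The authors deposited a score per gene, a whole number on a normalized scale, in 1 column per library for 10976 genes. How the scores were normalized, and whether counting used the strand, is not given in the sources used here. The submitters' processing notes name bcl2fastq, Bowtie2 and RSEM without versions, and the build mm10, although the genes and coordinates are human.

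The scores were taken as log2(score + 1), and genes that reached a score of 10 in 2 or more libraries of a fit were tested with limma 3.58.1 (lmFit, eBayes with trend, R 4.3.3) and Benjamini-Hochberg adjustment over all genes tested. Calls required an adjusted *p* under 0.05 and a 2-fold change. On this scale the fold changes of low scores come out too small. Each day had its own fit of KO against WT (6 libraries), day changes and the interaction in 1 fit of 12 libraries with 4 groups, and clones in fits of 3 groups per day. Differences between 2 genes within a library were tested with exact two-sided permutation tests. The model was written for normalized values and was tested on simulated data.

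The genes, the lists and the tests were chosen with earlier results of these data known. The genes named are the 7 members, each list member that was called (the 4 with the largest change, where more were), the 3 genes most like each member, and *JUN*; other list members are named as examples chosen after their values were seen, and some list members are not reported here by name. Positions and antisense overlaps were checked against GENCODE 29. All 7 members matched the RefSeq promoter windows by symbol, and no window that overlaps an untranslated region is printed.

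On day 12, deviations from the group mean were correlated between libraries that share a replicate number in the labels (r across genes 0.459, 0.428 and 0.598 for the 3 pairs of lines). The numbers were therefore taken as pairing the day 12 libraries, but the values given come from fits without the block unless the block is named. Alternatives were other filters, a pseudocount of 0.1, median centring, no trend, the replicate block, clones as groups, all 12 libraries in 1 fit, and each library left out; leaving out libraries in the comparisons of single clones, and the list counts without replicate 1 of KO#10, were added after seeing the data. Tables, permutation tests and figures used scipy 1.17.1, numpy 2.4.6, pandas 2.3.3 and matplotlib 3.10.9 under Python 3.11.15.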

Additional observations from a re-analysis of the deposited data

Results flagged for a closer look

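In 5 genes of the lists, the change from day 12 to day 24 differed between KO and WT by the interaction of genotype and day (limma adjusted *p* from 0.0126 to 0.0367). For *GADD45A* the interaction was −2.37 on the log2 scale, with a rise in WT and a fall in KO. The other genes are pluripotent cell markers, with −1.20 for *SALL4*, −1.54 for *LIN28B*, −2.48 for *L1TD1* and −3.33 for *LIN28A*. Of the 7 writers and erasers none was called in this fit, and *TET3* was with the replicate block (1.15, adjusted *p* = 0.0430).

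In the 4 KO libraries of a day, 4 of 42 sets of values held a library far from the other 3 by Dixon's ratio, and chance flags about 1 set in 20. None of these was a value of the 7 genes. On day 24 replicate 1 of KO#10 had the highest sum of endoderm and liver markers (1299) and of mesenchyme and neural crest markers (2331). On day 12 replicate 2 of KO#2 had the lowest sum of the partners of maintenance methylation (444), and replicate 2 of KO#10 the highest of the S phase genes (1446).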

How the results depend on the processing

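The counts of the 7 genes called were 1 (KO against WT on day 12), 2 (day 24), 1 (WT over time), 1 (KO over time) and 0 (interaction). On day 12 the count was 0 without the filter on low values (*DNMT3B* adjusted *p* = 0.0796) and with the clones as separate groups (0.0706), and 0 to 0 when libraries were left out. When libraries were left out it was 0 to 3 on day 24, 1 to 2 in WT over time, 1 to 1 in KO over time and 0 to 1 for the interaction. The replicate block gave 1 for the interaction (*TET3*, adjusted *p* = 0.0430) and 1 in place of 0 for KO#2 against WT on day 12, and changed no other count of these genes. On day 24 libraries only shared a number (r = 0.212, −0.106 and 0.346). KO#2 against WT on day 24 gave 2, with 3 (*TET3*, 1.08, adjusted *p* = 0.0206) with all 12 libraries in 1 fit with 6 groups, and 0 to 3 when libraries were left out (0 without any 1 of the 2 WT and 2 KO#2 libraries). KO#10 against WT on day 24 gave 0, and 1 (*DNMT3B*, adjusted *p* = 0.00296) with all 12 libraries in 1 fit with 6 groups. *TET1* minus *TET3* over time was −0.93 to −0.71 in KO and −0.70 to −0.46 over all lines when libraries were left out, and its exact *p* was above 0.05 in 3 of 8 and 8 of 12 cases.

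Over all genes, the 8 called on day 12 became 71 with the replicate block, 16 without the trend, 3 without the filter, 1 with separate clones and 1 to 4 when libraries were left out. The 744 of day 24 became 476 with a filter at 20, 1117 with all 12 libraries in 1 fit, and 2 to 1346 when libraries were left out. The 130 of the interaction became 368 with the replicate block, 83 with the filter at 20 and 11 to 916, and the 1499 of WT over time became 810 to 1572. In KO#2 against WT the block gave 35 for 1 on day 12 and 522 for 836 on day 24, where all 12 libraries gave 1432. In KO#10 against WT it gave 5 for 1 and 0 for 26, where all 12 libraries gave 468. The cause of these shifts was not tested.

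Directions reversed when a library was left out for effects that were not called. The ranges were −0.027 to 0.49 (*UHRF1*, KO against WT on day 12), −0.15 to 0.088 (*TET1*, day 24), −0.12 to 0.066 (*TET1* over time in KO), −0.12 to 0.48 (*UHRF1*, KO#10 against WT on day 12), −0.12 to 0.25 and −0.30 to 0.043 (*TET1*, KO#2 and KO#10 against WT on day 24). Between the clones they were −0.41 to 0.19 (*UHRF1*), −0.024 to 0.14 (*DNMT1*) and −0.18 to 0.0025 (*TET2*) on day 12, and −0.28 to 0.39 (*UHRF1*) and −0.70 to 0.16 (*TET3*) on day 24. Of 1152 alternative values, 1067 kept their direction and side of the threshold. The depth of the libraries is unknown, and 2 WT libraries per day limit every comparison with WT.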
